A study of Mus musculus with 6 samples.

Results

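Transcript levels of the kinase TAK1, of its 3 binding partners and of a short relative were compared between muscle of mice labelled TAK1 knockout and muscle of floxed controls. The 5 genes were Map3k7, which encodes TAK1, Tab1, Tab2, Tab3 and Map3k7cl, chosen by the gene symbol of the array's annotation out of 22180 measured genes. Each had 1 probe set, a group of probes read as 1 value, out of 41345 on the array. The tissue was mouse gastrocnemius muscle, a calf muscle whose name the labels spell Gastronemious. Knockout samples (3 mice) had the genotype muscle-specific TAK1-knockout, with muscle taken 3 weeks after deletion. Control samples (3 mice) were littermates of the genotype Floxed TAK1, so both groups carried the floxed gene. The labels give neither age nor sex, nor the promoter that drives the deletion, nor the exons deleted.

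TAK1 is a MAP3 kinase, an upper kinase of a relay. Receptors for TNF, interleukin-1, Toll-like receptor ligands and TGF-beta family ligands feed into it, and it phosphorylates kinases that lead to NF-kB, p38 and JNK. It works as a complex. TAB1 binds the kinase domain and promotes its activation, while TAB2 and the similar TAB3 bind ubiquitin chains through a zinc finger and bring the kinase to receptor-bound adaptors. Map3k7cl encodes a short protein that resembles the C-terminal end of TAK1 and has no kinase domain, and its role is little known.

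Levels were log2 probe set values, on which a difference of 1 is a doubling of the measured signal. Differences were tested with limma, which shares information on spread between genes, and p-values were adjusted over all 22180 genes with a threshold of 0.05. Median levels of the 6 arrays ran from 5.78 to 5.84. Arrays correlated, across genes that are not independent of each other, at 0.990 to 0.992 within groups and at 0.985 to 0.990 between groups. All 16 muscle fibre markers examined lay above a guide to background of 5.85, the level below which 95% of odorant and pheromone receptor genes lay. Their means ran from 8.46 (Tnnt1) to 14.14 (Myh4). Such markers go with muscle tissue but do not tell gastrocnemius from other skeletal muscles. All 5 genes of interest lay above that guide on every array. Probe sets differ in brightness for the same amount of RNA, so the 5 genes' levels are not ranked against each other.

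Map3k7cl was the gene of the 5 that differed most, and Tab2 was lower by a smaller amount, while the 95% intervals of Map3k7, Tab1 and Tab3 from limma included 0. Under an adjusted p of 0.05, 0 of the 5 genes were called (limma), against 0.0947% of all genes. At an unadjusted p under 0.05, 2 of the 5 passed (Map3k7cl and Tab2), against 8.04% of all genes. In 3 of the 5 genes (Map3k7, Tab2 and Map3k7cl) every knockout value lay below every control value, against 6.65% of all genes. The 5 genes were chosen with earlier results of these data known, so these shares are a description and no excess is read from them.

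**Figure D1:**
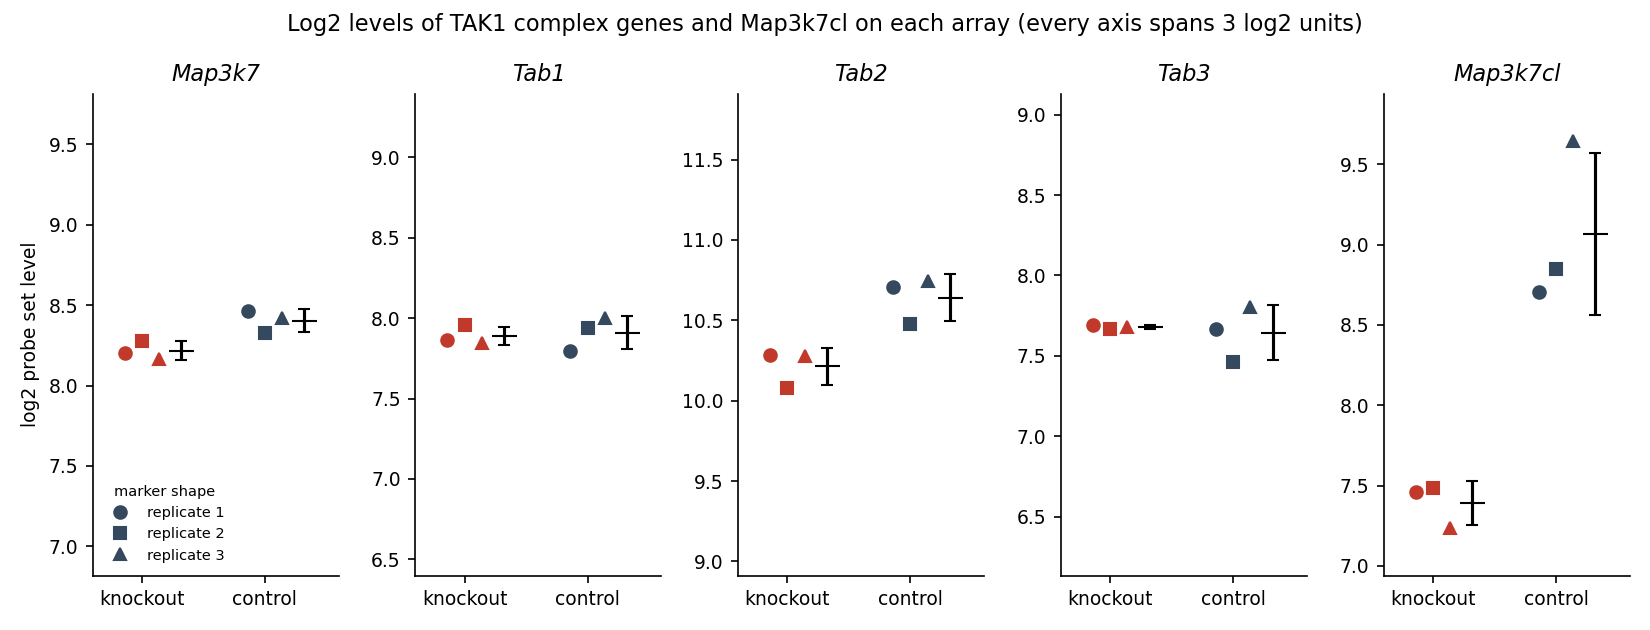
Log2 probe set level (vertical axes, each spanning 3 units) of the 5 genes on the 3 knockout and 3 control arrays. Points are arrays, with the marker shape giving the replicate number, and bars are the mean with its SD. The groups are widely apart for Map3k7cl, narrowly apart for Tab2 and Map3k7, and overlap for Tab1 and Tab3.

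Map3k7, the targeted gene, had log2 levels of 8.20, 8.28 and 8.17 in knockout muscle, against 8.47, 8.32 and 8.42 in control muscle. The groups did not overlap, but only 0.04 separated the highest knockout from the lowest control. The knockout mean was 87.9% of the control mean (95% confidence interval 75.7% to 102%). The log2 fold change was −0.19 ± 0.09 (SE, n = 3 per group; limma, adjusted p = 0.686), and 23.0% of all genes differed by more. A two-sided exact permutation test gave p = 0.1, the smallest p that 3 against 3 arrays allow. Map3k7 was a steady measurement. Its spread within groups was 0.07, against a median of 0.13 over the 2447 genes within 0.5 of its level, and 10.4% of those were steadier. Without variance sharing between genes, its interval was −0.33 to −0.04 (unadjusted p = 0.0253, adjusted p = 0.626), so the interval excludes 0 under that setting and the gene was still not called. In whole muscle, fewer cells of a type and less RNA per cell cannot be told apart, and which cells the remaining signal comes from was not measured. A probe set outside the deleted exons would still read the shortened transcript, so this value does not check the labels.

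Tab1, the partner that promotes activation of the kinase, had log2 levels of 7.86, 7.96 and 7.85 in knockout muscle, against 7.80, 7.94 and 8.0 in control muscle. The knockout values lay inside the control range. The log2 fold change was −0.02 ± 0.10 (SE, n = 3 per group; limma, adjusted p = 0.982), with a 95% interval of −0.25 to 0.20. That interval runs from 84.2% to 115% of the control level, so larger changes in either direction lie outside it.

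Tab2, an adaptor that ties the kinase to ubiquitin chains, had log2 levels of 10.28, 10.08 and 10.28 in knockout muscle, against 10.71, 10.47 and 10.74 in control muscle. The groups did not overlap, with a gap of 0.19, and replicate 2 was the lowest of each group. The knockout mean was 10.21 ± 0.12 and the control mean 10.64 ± 0.15 (SD, n = 3 each), so the knockout level was 74.3% of control (95% confidence interval 62.1% to 89.0%). The log2 fold change was −0.43 ± 0.11 (SE; limma, unadjusted p = 0.00499, adjusted p = 0.338). Tab2 was therefore not called. It stood at position 328 of 22180 in the order of p, and 3.14% of all genes differed by more. Leaving out any 1 array gave log2 fold changes from −0.51 to −0.36, with adjusted p from 0.327 to 0.708.

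Tab3, the ubiquitin-binding relative of Tab2, had log2 levels of 7.69, 7.67 and 7.68 in knockout muscle, against 7.67, 7.46 and 7.80 in control muscle. The 3 knockout values were nearly equal and lay inside the control range. The log2 fold change was 0.03 ± 0.11 (SE, n = 3 per group; limma, adjusted p = 0.969), with a 95% interval of −0.22 to 0.29, or 86.1% to 122% of the control level. The intervals of Tab2 (−0.69 to −0.17) and Tab3 overlap, and whether these adaptors differ in their change was not tested.

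**Figure D2:**
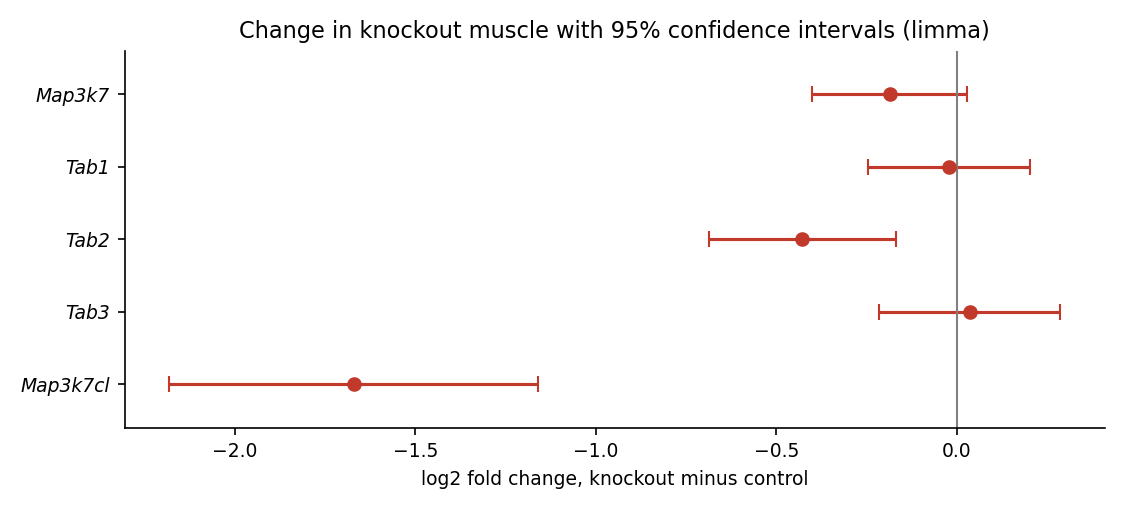
Log2 fold change of knockout over control (horizontal axis) for the 5 genes, with points for the estimate and bars for the 95% confidence interval (limma, 3 arrays per group). The intervals of Map3k7cl (−2.18 to −1.16) and Tab2 (−0.69 to −0.17) lie below 0, and those of Map3k7, Tab1 and Tab3 include 0.

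Map3k7cl had log2 levels of 7.46, 7.49 and 7.24 in knockout muscle, against 8.70, 8.85 and 9.64 in control muscle. The knockout values were close together and 1.22 separated the groups, while control 3 lay well above the other controls. The knockout mean was 7.39 ± 0.14 and the control mean 9.06 ± 0.50 (SD, n = 3 each), so the knockout level was 31.4% of control (95% confidence interval 22.0% to 44.7%). The log2 fold change was −1.67 ± 0.22 (SE; limma, unadjusted p = 5.1e-05, adjusted p = 0.0511). Map3k7cl missed the threshold by a small margin, and 5 genes had a larger drop. Flrt1 (−3.30), Mettl21e (−1.77) and Tspan8 (−1.67) were measured above the guide to background in both groups. Tceal7 and Mss51 had knockout means below the guide (5.47 and 5.69), so only bounds are given, at least 5.05-fold and at least 5.50-fold lower, against 3.18-fold for Map3k7cl. Of these 5 genes, Mettl21e, a muscle methyltransferase, was not called (limma, adjusted p = 0.327). Map3k7cl stood at position 22 in the order of p, directly after the 21 called genes. Before it came Mss51, Aldh1a1 and Tns3 (adjusted p = 0.0429, 0.0436 and 0.0497, limma), and after it Ccndbp1, Ttc9 and Arhgap20 (0.0661, 0.0756 and 0.0782).

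The spread of Map3k7cl within groups was 0.37, larger than in 97.2% of the 2528 genes within 0.5 of its level, and it lay mainly in the controls. Without control 3 the drop was smaller, at −1.38, and passed the test (limma, adjusted p = 0.0333). Without any 1 of the other arrays it ran from −1.85 to −1.59 and did not pass (limma, adjusted p = 0.075 to 0.218). With all 6 arrays it passed under median centring (limma, adjusted p = 0.0481), array weights (0.0483), an intensity trend with a robust prior (0.0282) and with above-median genes only (0.0222). It did not pass under quantile normalization (0.0562), with every probe set tested (0.280) or without variance sharing between genes (0.513).

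The change of Map3k7cl was set against that of Map3k7 within each array. The log2 level of Map3k7cl minus that of Map3k7 was −0.75, −0.79 and −0.93 in knockout muscle, against 0.24, 0.52 and 1.22 in control muscle. The groups did not overlap. The change of Map3k7cl minus that of Map3k7 was −1.48 ± 0.22 on the log2 scale (SE; 95% interval −1.99 to −0.98; limma, unadjusted p = 0.000111). This pair was chosen with earlier results of these data known, and the exact two-sided permutation p was 0.1, the smallest possible.

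**Figure D3:**
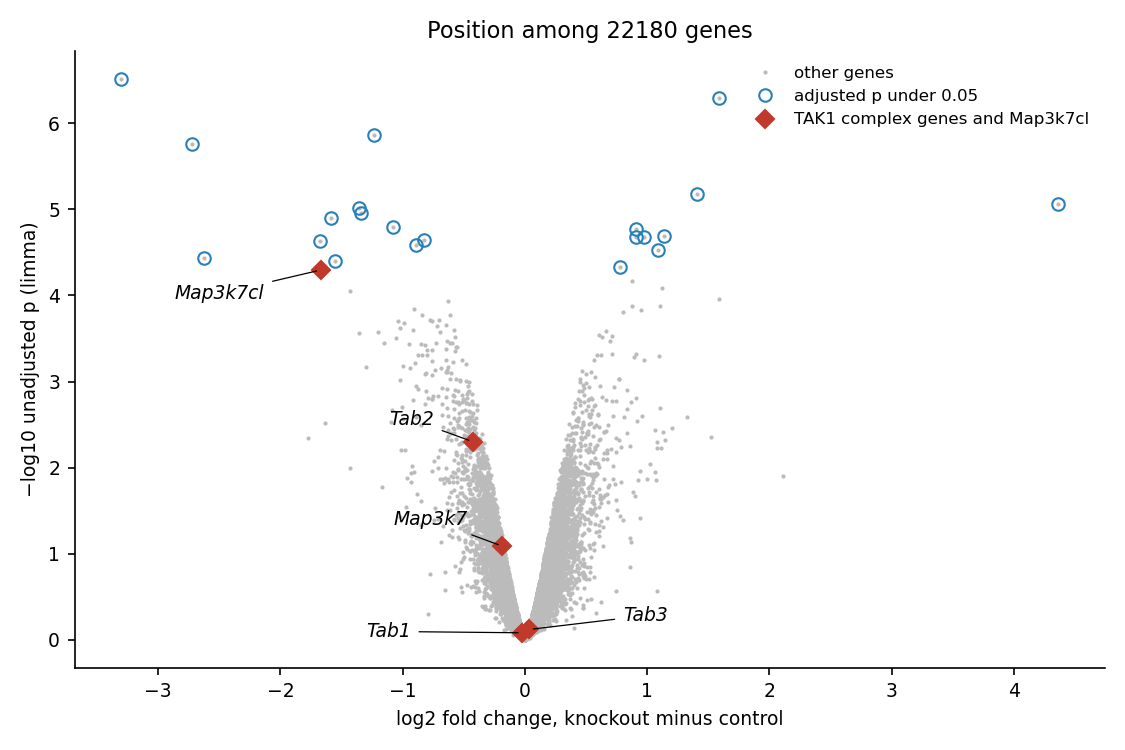
Log2 fold change of knockout over control (horizontal axis) against −log10 of the unadjusted p from limma (vertical axis) for 22180 genes. Diamonds mark the 5 genes and open circles the 21 genes with an adjusted p under 0.05. Map3k7cl lies just below the called genes, and Tab2, Map3k7, Tab1 and Tab3 lie within the cloud of other genes.

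The genes whose pattern over the 6 arrays was most like that of Map3k7cl were sought among 211 genes of above-median level and sufficient range. The 5 with the highest Pearson's r were Tceal7 (0.991), Nkain1 (0.963), Flrt1 (0.961), Adamts8 (0.961) and Tigd4 (0.947), with Spearman's rho from 0.829 to 0.943. Tceal7 belongs to a family of small nuclear proteins that resemble an elongation factor, and Flrt1 is a membrane protein with leucine-rich repeats. Tceal7 had log2 levels of 5.56, 5.52 and 5.32 in knockout muscle, against 7.93, 7.82 and 8.81 in control muscle. Its knockout values lay below the guide to background, so their order is not read, and among its controls replicate 3 was the highest, as in Map3k7cl. Flrt1 had log2 levels of 7.38, 6.67 and 7.01 in knockout muscle, against 9.86, 10.43 and 10.67 in control muscle, so its lowest knockout was replicate 2. These genes were picked for their likeness over the same 6 arrays, which the group difference dominates, so the coefficients are a description.

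For Map3k7 the same search covered 7012 genes, and the 5 most alike were Dennd1b (r = 0.995), Lrrc32 (0.990), Rhpn2 (0.973), Kdm6b (0.972) and Panx1 (0.966), over 6 arrays. Kdm6b, a histone demethylase, had log2 levels of 8.57, 8.58 and 8.40 in knockout muscle, against 9.10, 8.87 and 9.0 in control muscle (log2 fold change −0.48, limma, adjusted p = 0.233). None of these 5 genes was called (limma, adjusted p = 0.233 to 0.562). In all, 87 of the 7012 genes had an r over 0.9 with Map3k7, and 11 of 211 with Map3k7cl.

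**Figure D4:**
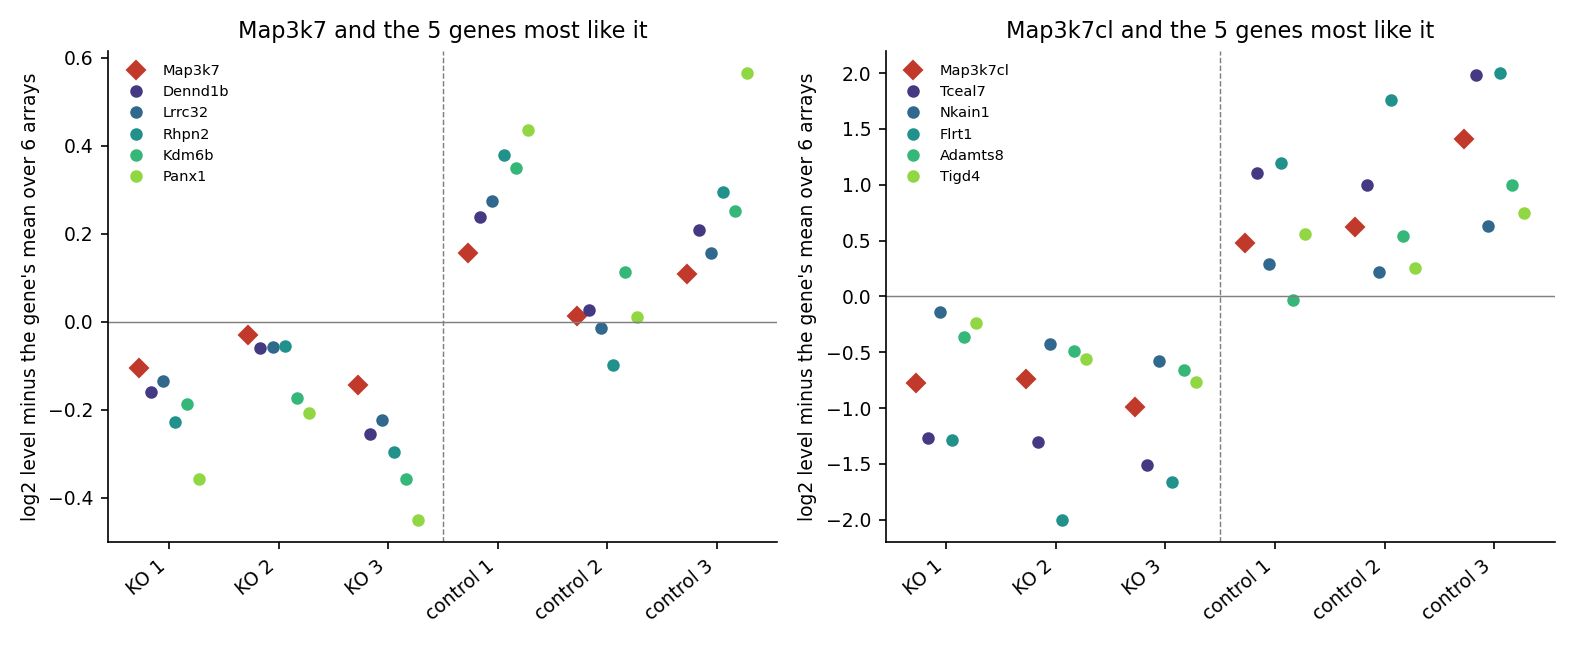
Log2 level minus each gene's mean over the 6 arrays (vertical axes) on each knockout and control array, for Map3k7 (left) and Map3k7cl (right) as diamonds and the 5 genes most like each as circles. For Map3k7 the deviations span −0.14 to 0.16, with control 2 close to knockout 2, and for Map3k7cl they span −0.99 to 1.41, with control 3 the highest.

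The genes that act around TAK1 were read from 5 lists. Of 96 listed genes, 88 had a probe set of their own. None of the 88 was called (limma), against 0.0947% of all genes, a share at which 0 is the likely count in lists this short. Of the 88, 9 had an unadjusted p under 0.05, which is 10.2% of them, against 8.04% of all genes. Lower levels in knockout muscle were seen in 55 (62.5%), against 50.1% of all genes, with a median log2 fold change of −0.03, against −0.0003 over all genes. Only 1 of the 88, Mapk14, differed by more than Tab2, and none differed by as much as Map3k7cl.

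Of 17 receptors upstream of TAK1, 0 were called, 11 were lower and 6 higher, and the median log2 fold change was −0.03. The smallest p belonged to the BMP receptors Bmpr1a (−0.31, limma, adjusted p = 0.581) and Bmpr1b (−0.25, 0.625) and to the endotoxin receptor Tlr4 (0.21, 0.751). Of 20 adaptors and ubiquitin enzymes that activate TAK1, 0 were called, 12 were lower and 8 higher, with a median of −0.02. The interleukin-1 receptor kinase Irak2 differed by 0.31 on the log2 scale (limma, adjusted p = 0.559) and the paracaspase Malt1 by 0.39 (0.597). Traf6, the ubiquitin ligase whose chains TAB2 and TAB3 bind, differed by −0.25 (limma, adjusted p = 0.653).

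Of 16 kinases downstream of TAK1, 0 were called, 8 were lower and 8 higher, with a median of −0.04. Mapk14, the p38 alpha kinase, averaged 8.59 ± 0.12 in knockout muscle and 9.06 ± 0.08 in control muscle (SD, n = 3 each; log2 fold change −0.47, limma, adjusted p = 0.233). Map2k3, a kinase between TAK1 and p38, lay in the other direction, at 10.94 ± 0.06 in knockout muscle and 10.52 ± 0.24 in control muscle (0.42, limma, adjusted p = 0.432). Prkaa1, a catalytic subunit of AMP-activated kinase, differed by 0.30 (limma, adjusted p = 0.534).

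Of 13 negative regulators, 0 were called, 8 were lower and 5 higher, with a median of −0.02. Ppm1l, a phosphatase that acts on TAK1, averaged 9.24 ± 0.19 in knockout muscle and 9.64 ± 0.14 in control muscle (SD, n = 3 each; log2 fold change −0.40, limma, adjusted p = 0.446). The deubiquitinase Cyld had a log2 fold change of 0.16 and the phosphatase Ppm1b of −0.09. Of 22 other MAP3 kinases, 0 were called, 16 were lower and 6 higher, with a median of −0.08 and a range from −0.28 to 0.17. The smallest p belonged to the mixed-lineage kinases Map3k11 (−0.28, limma, adjusted p = 0.543) and Map3k10 (−0.22, 0.625) and to the NF-kB-inducing kinase Map3k14 (−0.15, 0.778).

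**Figure D5:**
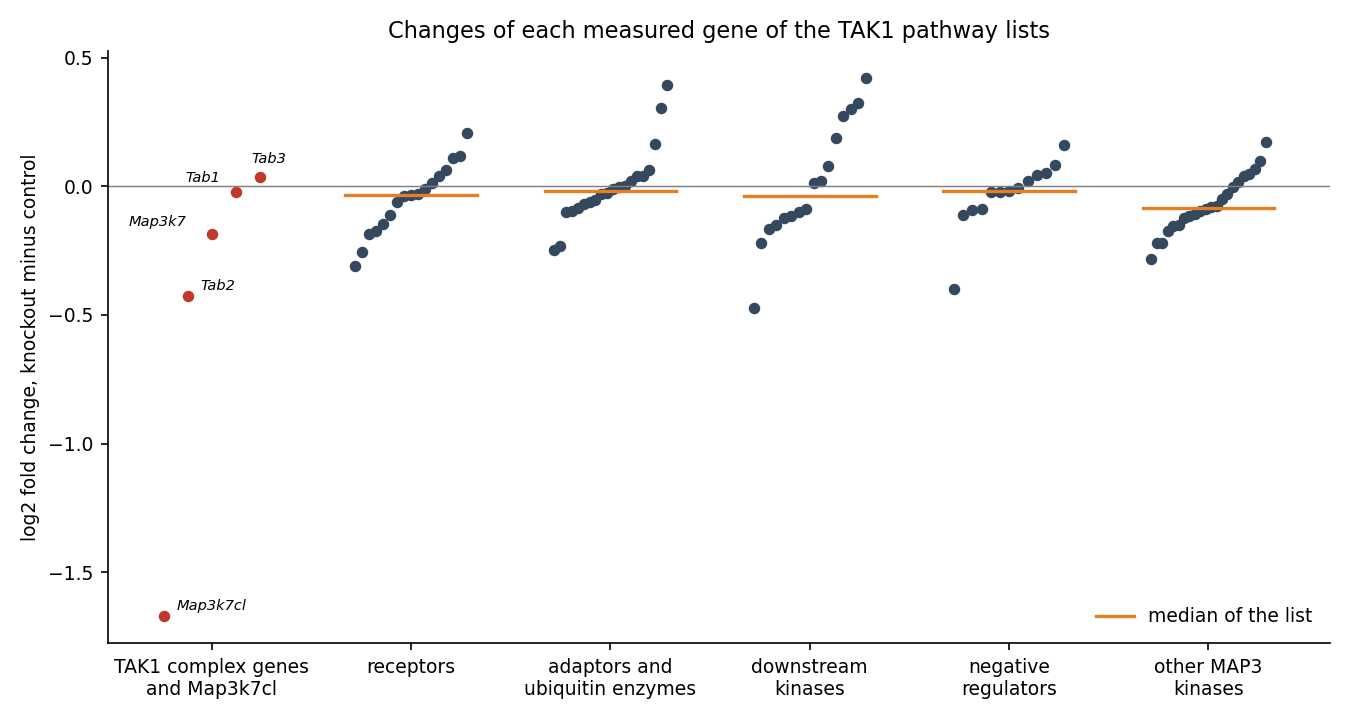
Log2 fold change of knockout over control (vertical axis) for the 5 genes and for each measured gene of 5 pathway lists, with a point per gene and a line at each list's median. The listed genes lie between −0.47 and 0.42, and Map3k7cl lies at −1.67.

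Markers of other cells were read beside these results. Of 11 tendon markers 10 were lower, against 50.1% of all genes, and 0 were called, against 0.0947% of all genes. Their median log2 fold change was −0.53. Their summed signal on a linear scale was 1586 to 3222 in knockout muscle and 2775 to 4308 in control muscle, so the groups overlapped in the sum, to which Thbs4 contributes most. At an unadjusted p under 0.05, 5 of the 11 passed, against 8.04% of all genes. In 2 of the 11 every knockout value lay below every control value, against 6.65% of all genes. Chodl was at most 6.83 in knockout muscle and at least 7.22 in control muscle, and Fmod at most 8.78 in knockout muscle and at least 8.92 in control muscle. The largest drops among the 11 were those of Kera (−1.43, limma, adjusted p = 0.425) and Tnmd (−1.02, limma, adjusted p = 0.584). In both the groups overlapped, and knockout 3 lay below the guide to background (5.59 and 5.52). Col12a1 was the 1 that was higher (0.04). Knockout 3 had the lowest tendon sum and the lowest Map3k7cl, and without it the Map3k7cl log2 fold change was −1.59. Control 1 had a lower tendon sum (2775) than knockouts 1 and 2 (3222 and 2882) and a higher Map3k7cl (8.70, against 7.46 and 7.49). The highest tendon sum was that of control 2, and the highest Map3k7cl that of control 3. The part of tendon tissue in the result was not tested. Muscle fibre markers had a median of −0.003 with 7 of 16 higher and 9 lower. They ran from −0.49 (Myh1, limma, adjusted p = 0.418) to 0.28 (Tnnt1, limma, adjusted p = 0.865). Endothelial markers had a median of −0.003 and macrophage markers of −0.01. Smooth muscle and pericyte markers had a median of −0.11, adipocyte markers −0.15, fibro-adipogenic markers −0.09 and satellite cell markers −0.02. None of the measured markers of any of these cells was called, against 0.0947% of all genes. Of the blood cell lists, 0 of 9 lymphocyte, 4 of 8 platelet, 1 of 10 neutrophil and 1 of 2 erythroid markers lay above the guide to background, and the medians were −0.08, 0.03, 0.10 and −0.07. Schwann cell markers had a median of 0.02.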

How the data were processed

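RNA was extracted with Trizol and labelled with biotin for Affymetrix arrays, 1 per mouse, per the labels' protocols. The deposited log2 values are probe set summaries made by the authors, and RMA, oligo and limma are named, per the submitters' processing notes, with no versions. RMA can make differences of dim transcripts too small. No genome build is named, so no coordinates are given. The number of arrays limits the precision. The labels do not name separate batches.

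Symbols were those of the platform annotation held by GEO, some of them possibly outdated. Of 41345 probe sets, 23521 had 1 symbol, 1814 several and 16010 none. Entrez identifiers of all 5 genes matched the RefSeq gene table of GRCm38.p6. A gene was represented by its probe set with the highest mean. The comparison used limma 3.58.1 in R 4.3.3 (lmFit and eBayes, group means, two-sided, Benjamini-Hochberg), and was first tested on simulated data. Plots used matplotlib 3.10.9 in Python 3.11.15. The background guide used 1394 receptor genes. Lists were described by counts and medians, with no set test.

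The 5 genes, the lists and the tests were chosen with earlier results of these data known. Named were the 5 genes, the 3 members of each pathway list with the smallest p, the 3 neighbours of Map3k7cl on each side in the order of p, genes with a larger drop, and the 5 genes most alike by Pearson's r (predicted genes and clone names left out, level above the median, range at least that of Map3k7 or 0.5 times that of Map3k7cl). The alternatives tried were median centring, quantile normalization, every probe set, the mean over probe sets, above-median genes, an intensity trend with robust prior, no variance sharing, array weights, a replicate block and leaving out each array.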

Additional observations from a re-analysis of the deposited data

How the results depend on the processing

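The count of 21 called genes (9 higher, 12 lower in knockout muscle) moved by over 1.5 times under some settings. It was 6 when every probe set was tested, 53 among above-median genes, 36 with a robust prior and intensity trend, and 0 without variance sharing between genes (1612 at an unadjusted p under 0.05). It ran from 2 to 11 when 1 array was left out: 3, 2 and 11 without knockouts 1, 2 and 3, and 7 without each of the 3 controls. Map3k7cl passed the threshold with a log2 fold change of −1.67 under median centring, among above-median genes and with a robust prior and intensity trend, and of −1.74 with array weights. Leaving out 1 array gave −1.85 to −1.38 for Map3k7cl, −0.23 to −0.15 for Map3k7 and −0.51 to −0.36 for Tab2, and the difference between the changes of Map3k7cl and Map3k7 ran from −1.70 to −1.20. Tab1 ran from −0.079 (without control 1) to 0.022, its one positive value, without control 3. Tab3 ran from −0.056, its one negative value, without control 2 to 0.11. Under the other settings Map3k7, Tab1, Tab2 and Tab3 kept their direction and none passed. With the replicate number as a block, 17 genes were called and Map3k7cl had a log2 fold change of −1.67 (limma, adjusted p = 0.108). The labels do not say that a number marks a shared litter or day. The deviations of same-numbered arrays correlated at 0.08, 0.21 and −0.07, and those of differently numbered arrays at −0.22 to 0.14. Not every array correlated best with its own number. With 3 arrays per group, these values cannot decide whether same-numbered samples share more than a number. The cause of these moves was not tested. Testing every probe set raises the number of tests and testing above-median genes lowers it. Both settings also changed the spread shared between genes, and the SE of Map3k7cl was 0.247 and 0.220, against 0.224.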
